A study of Mus musculus with 24 samples.

Results

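Rab GTPases are small GTP-binding proteins of the Ras superfamily that mark the membranes of the cell, and 58 genes of this family were followed through sorted macrophages and monocytes of mouse lung. Members were the rows of the deposited table with a symbol of Rab followed by a number and at most 1 letter and 1 further digit, and with a protein-coding type. The rule took 58 of 37979 rows, among 22174 protein-coding ones, and it used no measured value. RNA sequencing had been made of 24 libraries, 3 in each of 8 groups, from C57BL/6 males of 10 to 16 weeks. Tumours were Lewis lung carcinoma cells with luciferase (LLC-Luc), injected into the left lobe in 25 µl. MacB3-3wk and MacB3-2wk held CD64hi cells that were CD11b+ and CD11c+ but Ly6G-, from the tumour-bearing left lobe after 3 and 2 weeks. MacB2-3wk and MacB2-2wk held CD64med cells that were CD11b+ but CD11c- and Ly6G-, from the same lobe at the same times. MacA-2wk held SiglecF+/CD11c+ cells of that lobe at 2 weeks. MacB1-N (CD64low, CD11b+, CD11c+, Ly6G-), MacB2-N (gated as MacB2 above) and MacA-N (gated as MacA above) came from all lobes of naive mice. Each contrast of a tumour group with a naive one thus also compared a left lobe with a whole lung. Each library held cells pooled from 3 to 5 mice. The 3 of a group came from independent experiments (n = 3 in every group).

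A Rab protein switches between a GDP-bound form in the cytosol and a GTP-bound form on a membrane. Guanine nucleotide exchange factors (GEFs) load it with GTP, GTPase-activating proteins (GAPs) end the signal, and effectors such as tethers and motors do the work while it is on. In macrophages, Rab proteins carry particles from the phagosome to the lysosome, return receptors to the surface and bring secretory cargo out. All values are FPKM (fragments per kilobase of transcript, scaled to the mapped reads of the library), a scale per transcript length, so levels of different genes can be set side by side.

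The libraries differed in ways that the groups share. MacA libraries were all on run lane 1 and replicates 1, 2 and 3 of every MacB group were on lanes 2, 3 and 7, so lane and MacA identity cannot be told apart, while comparisons among MacB groups could be read within lanes. Absolute depth is unknown from FPKM, and the relative depth read from the steps between low values was 0.518 to 1.00 of the deepest library. The 10 alveolar macrophage markers summed to 9091 to 11336 FPKM in MacA-N and 6929.7 to 8738 FPKM in MacA-2wk, and to at most 1373 FPKM in any MacB library. Ly6g, the antigen gated against, was listed at 0 in every library, but 5 of 6 neutrophil markers reached a group mean of 1 FPKM. In the tests described below, 1 of these 5 was called higher in MacB2-3wk than in MacB2-N. In MacB1-N and MacB2-N against MacA-N, and in MacB3-2wk against MacA-2wk, 1 was called lower. Fibroblast markers (collagens, decorin and the like, 7 genes) summed to 256 FPKM in MacA-2wk replicate 3, against 32.6 and 27.1 FPKM in the others of its group. Endothelial markers summed to 337 FPKM in MacB2-N replicate 3, against 97.7 and 85.5 FPKM. These libraries stood apart for several Rab genes as well and are named beside those. In sorted pools, fewer cells that hold an RNA and less of that RNA per cell cannot be told apart.

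Members covered the whole range of levels. Between 41 and 45 of the 58 members had a group mean of at least 1 FPKM, 23 to 25 reached 20 FPKM and 7 or 8 reached 100 FPKM, depending on the group. Rab5c, a fusion factor of early endosomes, had the highest mean in every group except MacA-2wk, where Rab14, a Rab of endosomes and the trans-Golgi network, was above it. Rab5c averaged 608 ± 262 FPKM in MacB3-3wk, 591 ± 50.5 FPKM in MacB3-2wk and 272 ± 135 FPKM in MacB1-N (mean ± SD). The 58 members together summed to 2557 ± 250 FPKM in MacB3-3wk, 2754 ± 102 FPKM in MacB3-2wk, 1929.8 ± 290.2 FPKM in MacB1-N and 2302 ± 483 FPKM in MacB2-N. They summed to 2365 ± 126 FPKM in MacB2-2wk, 2293 ± 348 FPKM in MacB2-3wk, 2272 ± 328 FPKM in MacA-2wk and 2492 ± 216 FPKM in MacA-N. As a mean share of the protein-coding sum these were 0.389% to 0.392% in MacB3, 0.332% to 0.374% in MacB1 and MacB2, and 0.415% to 0.433% in MacA. Rab7, which drives fusion of late endosomes with lysosomes, lay between 93.0 and 197 FPKM over all libraries, and Rab11a, of the recycling endosome, between 94.8 and 211 FPKM. At the other end, 10 members never reached a group mean of 1 FPKM and were not tested, and Rab9b, a paralogue of the late endosomal Rab9, was listed at 0 in every library.

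Each of the 12 pairwise comparisons asked which Rab genes separate a pair of populations or times. A member was called when limma gave an adjusted p under 0.05 (Benjamini-Hochberg, over the 17156 genes tested) and a fold of at least 2. Folds are on the log2(FPKM + 1) scale, where low genes show less than their full change. Of the 48 members tested, 20 were called in at least 1 comparison and 28 in none. MacB1-N against MacA-N called 6 members, 2 higher and 4 lower (12.5% of those tested). Of all genes tested 23.7% were called there, 15.0% higher and 8.71% lower. MacB2-N against MacA-N called 10 members, 6 higher and 4 lower (20.8%; all genes 20.9%, 10.7% higher and 10.2% lower). MacB3-2wk called 8 members against MacA-2wk, 4 higher and 4 lower (16.7%; all genes 14.5%, 7.20% higher and 7.28% lower). It called 10 against MacB1-N, 6 higher and 4 lower (20.8%; all genes 21.5%, 8.32% higher and 13.1% lower). At 3 weeks, MacB2-3wk called 7 members against MacB2-N, 3 higher and 4 lower (14.6%; all genes 14.7%, 9.67% higher and 5.04% lower). Limma called 0 members in MacB2-3wk against MacB2-2wk (all genes 4.34%; 10 members at an unadjusted p under 0.05). MacB3-2wk against MacB2-2wk called 3 members (6.25%, all genes 7.36%). There was 1 in MacB3-3wk against MacB2-3wk (2.08%, all genes 2.64%) and 1 in MacB1-N against MacB2-N (2.08%, all genes 5.21%). None was called by limma in MacA-2wk against MacA-N (all genes 0.787%; 6 members at an unadjusted p under 0.05), MacB2-2wk against MacB2-N (all genes 1.88%; 2) or MacB3-3wk against MacB3-2wk (all genes 0.315%; 2). With these shares near or below those of all genes, the counts do not set the family apart, and the description that follows is of single members. Single libraries moved some of these counts by over 1.5 times. MacB2-N against MacA-N called 6 members without MacA-N replicate 3. MacB1-N against MacB2-N called 0 without MacB2-N replicate 2 and 3 without MacB2-N replicate 3, and MacB2-3wk against MacB2-2wk called 1, Rab40c, without MacB2-3wk replicate 1. MacB3-3wk against MacB2-3wk called 0 without MacB2-3wk replicate 1 or 3 or MacB3-3wk replicate 1 or 3, and 0 with run lane as a replicate block. MacB3-2wk against MacA-2wk called 5 without MacA-2wk replicate 3 or MacB3-2wk replicate 2, and MacB3-2wk against MacB1-N called 6 without MacB1-N replicate 3 or MacB3-2wk replicate 3. Median log2 fold changes of the 48 members were small throughout, from -0.17 in MacB2-N against MacA-N to 0.13 in MacB3-2wk against MacB1-N, where all genes tested had medians of 0.03 and -0.11.

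Markers of monocytes, which are among the sorted cells, and of other cell types moved with several of these comparisons. In MacB1-N against MacA-N, limma called higher 7 of 7 endothelial markers tested, 6 of 7 fibroblast, 4 of 5 dendritic and 4 of 5 T cell markers. It also called higher 7 of 7 nonclassical monocyte markers (median log2 fold change 4.35) and 5 of 6 classical ones. The endothelial markers summed to 318 to 411 FPKM in MacB1-N and 46.2 to 91.8 FPKM in MacA-N, and the fibroblast markers to 63.0 to 82.5 FPKM in MacB1-N and 8.52 to 17.1 FPKM in MacA-N, where Lum was listed at 0. The dendritic markers summed to 128 to 142 FPKM in MacB1-N and 4.41 to 8.32 FPKM in MacA-N, and the T cell markers to 21.7 to 36.6 FPKM in MacB1-N and 2.23 to 3.93 FPKM in MacA-N. In MacB3-2wk against MacB1-N, 7 of 7 endothelial, 6 of 7 nonclassical monocyte, 5 of 8 epithelial and 4 of 5 dendritic markers were called lower. Other lists went the other way there. Of 6 classical monocyte markers 4 were called higher and 0 lower (median log2 fold change 1.60). Of 9 general macrophage markers 6 were called higher and 0 lower (median 2.01). In MacB3-2wk the sums were 44.1 to 68.8 FPKM for endothelial, 351 to 974 FPKM for nonclassical monocyte, 138 to 587 FPKM for epithelial and 10.8 to 21.2 FPKM for dendritic markers. In MacB1-N the nonclassical monocyte markers summed to 3214 to 4990.3 FPKM and the epithelial ones to 3131 to 12889 FPKM, so none of these 4 sums overlapped between the groups. In MacB3-2wk against MacB2-2wk, 4 of 7 endothelial, 6 of 6 classical and 4 of 7 nonclassical monocyte markers were called lower. Median log2 fold changes of the classical and nonclassical markers were -1.72 and -2.04. In MacB2-3wk against MacB2-N, 3 of 7 endothelial and 7 of 7 nonclassical monocyte markers were called lower (median of the latter -2.48). Of 6 classical monocyte markers there, 4 were called lower and 1 higher. MacB2-N had 6 of 6 classical and 6 of 7 nonclassical monocyte markers called higher than MacA-N (median log2 fold changes 6.51 and 2.41). MacB3-2wk had 6 of 6 classical ones (median 4.21) and 1 of 7 nonclassical ones (median -0.31) called higher than MacA-2wk. All 10 alveolar macrophage markers were called lower in both comparisons, and 0 of 7 endothelial and 0 of 7 fibroblast markers were called there. The part of monocytes and of other cells in the calls of Rab members in these comparisons was not tested.

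**Figure D1:**
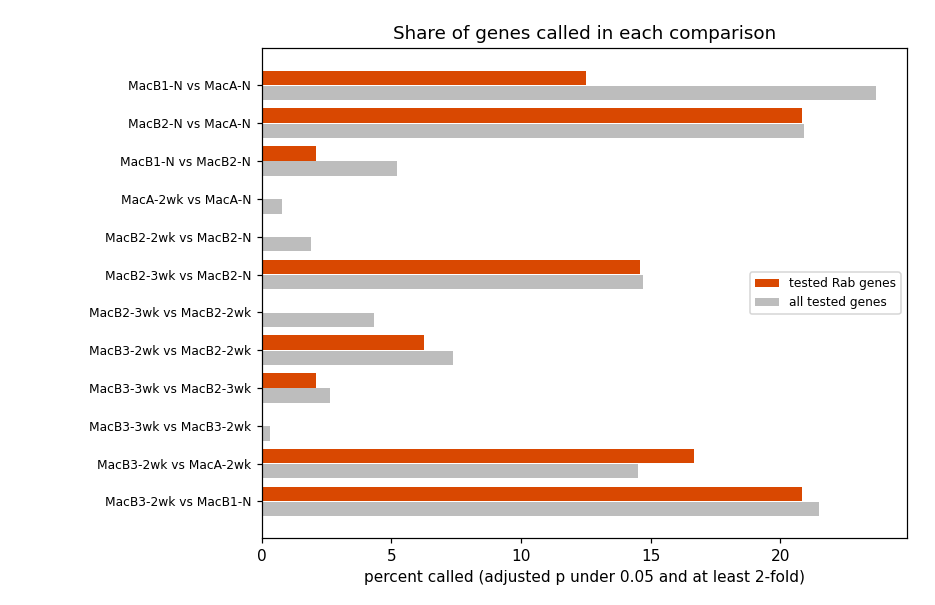
Percentage of the 48 tested Rab members and of all 17156 tested genes called (adjusted p under 0.05 and at least 2-fold, limma) in each pairwise comparison. MacB3-2wk against MacA-2wk is the 1 comparison where the member share is above the share of all genes. In MacB1-N against MacA-N the member share is 12.5%, against 23.7% of all genes.

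The split between higher and lower members depended on how libraries were scaled. Rescaling to the protein-coding sum moved the median log2 fold change of all genes to -0.32 in MacB3-2wk against MacA-2wk and to -0.32 in MacB3-2wk against MacB1-N, and the members called then became 2 higher and 10 lower, and 1 higher and 7 lower. The same rescaling gave a median of 0.26 with 2 higher and 1 lower in MacB1-N against MacB2-N. It gave a median of 0.10 with 4 higher and 2 lower in MacB2-3wk against MacB2-N, and 4 higher and 5 lower in MacB2-N against MacA-N. Quantile normalization gave 1 higher and 6 lower in MacB1-N against MacA-N, and 6 and 6 in MacB2-N against MacA-N. It gave 3 and 5 in MacB2-3wk against MacB2-N, and 4 and 2 in MacB3-2wk against MacB1-N. Of 46 calls of single members, 12 held under every alternative tried and 27 were lost when 1 library was left out, and no called member changed sign under any alternative. The 12 were Rab18, Rab43 and Rab44 in MacB1-N against MacA-N, and Rab36, Rab43 and Rab44 in MacB2-N against MacA-N. They were also Rab43 in MacB2-3wk against MacB2-N, Rab27a and Rab40c in MacB3-2wk against MacB2-2wk, Rab19 and Rab44 in MacB3-2wk against MacA-2wk, and Rab43 in MacB3-2wk against MacB1-N.

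The start regions of 4 called members give the sequence context of the levels that follow. RefSeq entries (GRCm38.p6, 250 bases before to 50 after each start) were found for 48 of 58 members, in 60 windows. Letters were searched on both strands for the GC box bound by Sp1 (GGGCGG), the ETS core bound by PU.1 (GAGGAA), the E-box of lysosomal genes (CACGTG), the AP-1 site (TGANTCA), the C/EBP site (TTGCNNAA) and the interferon response element (a pair of GAAA runs with 2 free bases between). The GC box stood in 68.3% of member windows against 35.7% of all 32851 windows. The ETS core stood in 18.3% against 28.3%, the E-box in 10% against 7.15%. The AP-1 site stood in 5% against 7.81%, the C/EBP site in 6.67% against 10.8% and the interferon element in 1.67% against 3.44%. Member windows had a median GC content of 61.1%, and all windows 52.7%. A match is a description of letters and not a bound site. The 4 windows differ in their letters. Rab43 was called in 4 comparisons and kept in all, and 1 of its windows has 7 GC boxes (chr6:87811730-87812029, minus strand). The Rab31 window has 1 GC box (chr17:65772703-65773002, minus strand). The Rab32 window has 2 ETS cores (chr10:10558158-10558457, minus strand). The Rab19 window is the 1 member window with the interferon element, where 2 matches overlap (chr6:39381103-39381402, plus strand). Capitals mark the matches, on either strand, and the rest is in lower case.
Rab43: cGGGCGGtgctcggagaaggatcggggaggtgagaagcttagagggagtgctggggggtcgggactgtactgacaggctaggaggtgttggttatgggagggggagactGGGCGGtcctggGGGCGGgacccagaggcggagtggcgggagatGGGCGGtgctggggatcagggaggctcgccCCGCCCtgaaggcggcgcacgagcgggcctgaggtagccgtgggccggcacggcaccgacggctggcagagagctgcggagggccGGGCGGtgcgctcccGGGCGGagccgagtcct
Rab31: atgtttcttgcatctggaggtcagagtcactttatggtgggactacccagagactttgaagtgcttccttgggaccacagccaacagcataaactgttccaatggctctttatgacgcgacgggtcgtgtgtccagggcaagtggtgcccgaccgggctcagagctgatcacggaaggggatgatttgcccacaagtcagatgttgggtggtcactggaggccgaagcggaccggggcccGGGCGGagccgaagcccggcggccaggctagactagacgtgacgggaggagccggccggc
Rab32: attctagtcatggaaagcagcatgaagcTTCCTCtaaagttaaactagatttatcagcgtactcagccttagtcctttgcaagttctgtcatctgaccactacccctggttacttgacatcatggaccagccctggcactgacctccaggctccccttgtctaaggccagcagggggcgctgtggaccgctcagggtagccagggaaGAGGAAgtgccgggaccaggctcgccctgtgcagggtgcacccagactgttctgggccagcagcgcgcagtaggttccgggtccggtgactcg
Rab19: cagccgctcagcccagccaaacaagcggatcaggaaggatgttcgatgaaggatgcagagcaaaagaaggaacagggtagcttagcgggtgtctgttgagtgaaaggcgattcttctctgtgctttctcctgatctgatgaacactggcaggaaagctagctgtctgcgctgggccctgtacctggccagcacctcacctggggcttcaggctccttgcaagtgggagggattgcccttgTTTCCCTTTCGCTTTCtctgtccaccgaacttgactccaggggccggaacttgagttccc

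Early endosomes receive what the cell takes up, and 8 members of this step were measured: Rab5a, Rab5b and Rab5c (fusion), Rab4a and Rab4b (fast return to the surface), Rab21, Rab22a and Rab31. Rab31 (ENSMUSG00000056515, chr17:65651729-65772752, minus strand), which acts between the trans-Golgi network and endosomes and in phagocytosis, was higher in MacB3-2wk than in MacA-2wk and MacB1-N, and higher in MacB2-N than in MacA-N. It had 143, 169 and 195 FPKM in MacB3-2wk, against 70.8, 62.7 and 44.3 FPKM in MacA-2wk and 77.5, 89.3 and 27.3 FPKM in MacB1-N. The MacB3-2wk libraries lay above all libraries of both other groups, and the log2 fold changes were 1.51 ± 0.41 SE, adjusted p = 0.012 and 1.53 ± 0.41 SE, adjusted p = 0.00848. MacB2-2wk, of the same lobe and time, averaged 158 ± 14.6 FPKM, and Rab31 was not called between MacB3-2wk and MacB2-2wk. In naive lungs it had 162, 204 and 54.3 FPKM in MacB2-N and 44.3, 58.3 and 55.7 FPKM in MacA-N, with MacB2-N replicate 3 inside the MacA-N range, and the log2 fold change was 1.20 ± 0.41 SE, adjusted p = 0.0349. The Rab31 call for MacB2-N against MacA-N ended without any 1 of MacA-N replicates 1, 2 and 3 and MacB2-N replicates 1 and 2 (log2 fold change 0.83 to 1.28, adjusted p 0.0571 to 0.176) and with no filter on low values, with rescaling to the protein-coding sum and in a fit of the groups compared alone (log2 fold change 0.97 to 1.20, adjusted p 0.045 to 0.193). The Rab31 call for MacB3-2wk against MacA-2wk ended without MacA-2wk replicate 3 (log2 fold change 1.32, adjusted p 0.0506). The Rab31 call for MacB3-2wk against MacB1-N ended without MacB1-N replicate 3 (log2 fold change 1.004, adjusted p 0.0658) and in a fit of the groups compared alone (log2 fold change 1.53, adjusted p 0.0783).

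Rab4b (ENSMUSG00000053291, chr7:27168424-27178896, minus strand), a Rab of fast recycling, was higher in MacB2-N than in MacA-N and higher in MacB3-2wk than in MacA-2wk. It had 92.5, 132 and 39.6 FPKM in MacB2-N, against 25.3, 27.3 and 36.9 FPKM in MacA-N, a log2 fold change of 1.39 ± 0.37 SE, adjusted p = 0.00843. It had 62.5, 62.5 and 119.8 FPKM in MacB3-2wk, against 25.0, 32.3 and 30.1 FPKM in MacA-2wk, a log2 fold change of 1.39 ± 0.37 SE, adjusted p = 0.0112. In both pairs the libraries did not overlap, and MacB2-N replicate 3 came closest. Of its transcript letters, 58.1% of windows of 50 bases were shared with the readthrough gene Gm21983 and other genes, so its level is uncertain. The Rab4b call for MacB2-N against MacA-N ended without MacB2-N replicate 2 (log2 fold change 1.02, adjusted p 0.0606) and in a fit of the groups compared alone (log2 fold change 1.39, adjusted p 0.111). The Rab4b call for MacB3-2wk against MacA-2wk ended without MacB3-2wk replicate 3 (log2 fold change 1.08, adjusted p 0.076). MacB2-N replicate 3 was also the library with the high endothelial sum, and the part of other cells in either gene was not tested.

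Rab5c (ENSMUSG00000019173, chr11:100715009-100738215, minus strand), the most abundant member, had 636, 536 and 601 FPKM in MacB3-2wk, against 425, 225 and 168 FPKM in MacB1-N and 301, 290.2 and 214 FPKM in MacA-2wk. All MacB3-2wk libraries stood above the others, with log2 fold changes of 1.22 ± 0.38 SE, adjusted p = 0.0198 and 1.15 ± 0.38 SE, adjusted p = 0.0363. With run lane as a replicate block the first was no longer called (adjusted p = 0.0518). The Rab5c call for MacB3-2wk against MacA-2wk ended without any 1 of MacA-2wk replicates 1, 2 and 3 and MacB3-2wk replicates 1, 2 and 3 (log2 fold change 0.99 to 1.24, adjusted p 0.0548 to 0.114) and with no filter on low values, with rescaling to the protein-coding sum and with quantile normalization (log2 fold change 0.71 to 1.15, adjusted p 0.0523 to 0.137). The Rab5c call for MacB3-2wk against MacB1-N ended without any 1 of MacB1-N replicates 2 and 3 and MacB3-2wk replicates 1 and 3 (log2 fold change 0.93 to 1.21, adjusted p 0.0533 to 0.108) and with rescaling to the protein-coding sum, with quantile normalization and in a fit of the groups compared alone (log2 fold change 0.94 to 1.22, adjusted p 0.0184 to 0.0657). Its relatives were not called there. Rab5a averaged 38.1 ± 7.62 FPKM in MacB3-2wk and 21.3 ± 7.32 FPKM in MacA-2wk (adjusted p = 0.0209, under 2-fold), and Rab5b was lower in MacB3-2wk, 15.6 ± 3.05 FPKM, than in MacA-2wk, 30.5 ± 4.68 FPKM (log2 fold change -0.93 ± 0.19 SE, adjusted p = 0.00113). Rab21, a Rab of integrin uptake, stayed between 20.6 and 38.9 FPKM in all libraries. Rab4a, the other fast recycling Rab, was low and is taken up with the 3-week MacB2 cells.

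**Figure D2:**
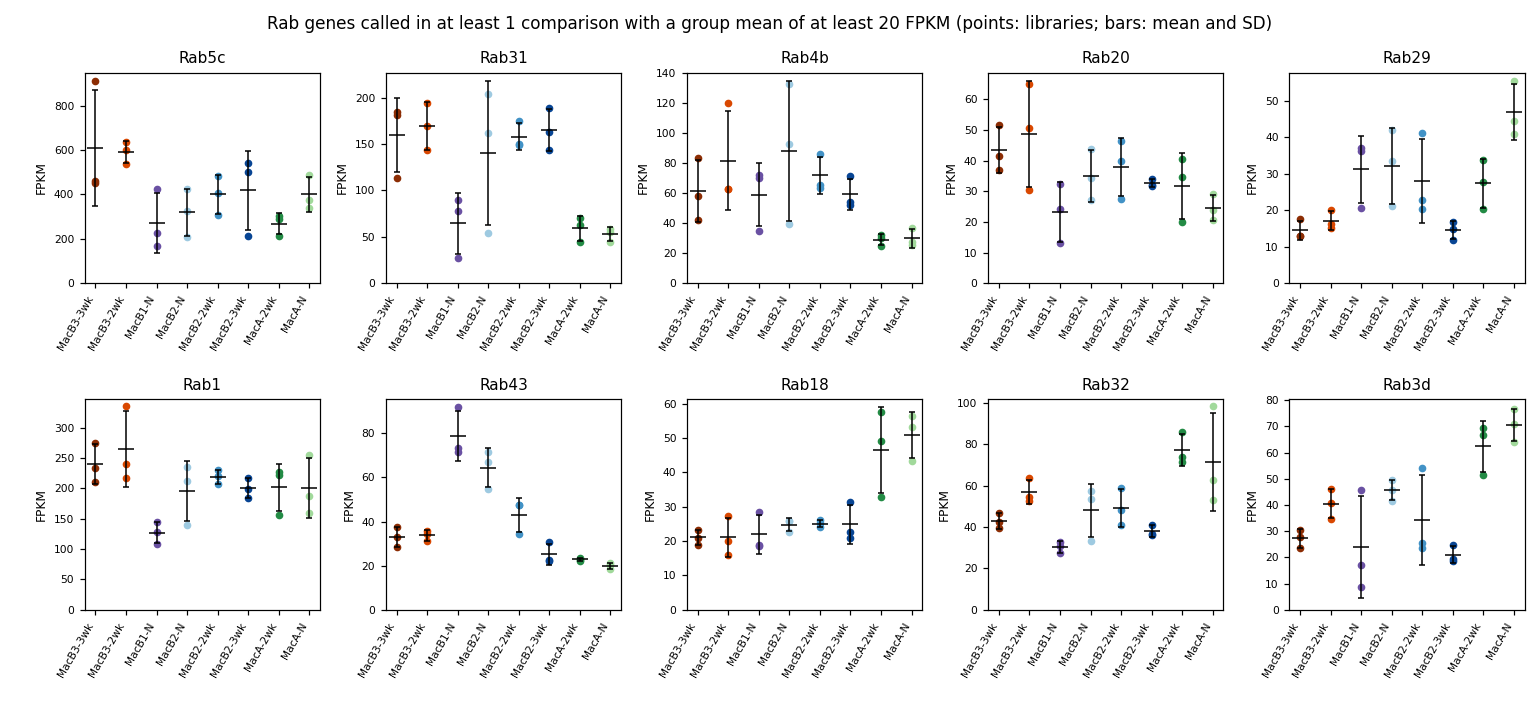
FPKM of the 10 called Rab members with a group mean of at least 20 FPKM, in every library (points) of the 8 groups, with the group mean and SD (bars). Rab43 separates MacB1-N and MacB2-N from both MacA groups with no overlap, Rab18 does so in the other direction, and Rab31 and Rab4b each have 1 low point among MacB2-N and among MacB1-N.

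Late endosomes, lysosomes and maturing phagosomes break down what was taken up. Rab20 (ENSMUSG00000031504, chr8:11453518-11478710, minus strand), which acts in phagosome maturation, had 65.0, 30.5 and 50.8 FPKM in MacB3-2wk and 24.3, 32.5 and 13.1 FPKM in MacB1-N. The groups overlapped, since MacB3-2wk replicate 2 was below MacB1-N replicate 2, and the log2 fold change was 1.06 ± 0.32 SE, adjusted p = 0.0181. Within lanes the direction held in 2 of 3. The Rab20 call for MacB3-2wk against MacB1-N ended without any 1 of MacB1-N replicate 3 and MacB3-2wk replicates 1 and 3 (log2 fold change 0.71 to 0.996, adjusted p 0.0603 to 0.12) and with a pseudocount of 5, with rescaling to the protein-coding sum and in a fit of the groups compared alone (log2 fold change 0.79 to 1.06, adjusted p 0.0183 to 0.143). Rab29 (ENSMUSG00000026433, chr1:131867224-131872887, plus strand), a partner of the kinase LRRK2 at the Golgi and lysosome, fell in MacB2 cells at 3 weeks, with 16.9, 11.9 and 14.9 FPKM in MacB2-3wk, against 41.9, 33.5 and 21.1 FPKM in MacB2-N. No library overlapped, and the log2 fold change was -1.05 ± 0.29 SE, adjusted p = 0.0136. The Rab29 call for MacB2-3wk against MacB2-N ended without any 1 of MacB2-N replicates 1 and 2 and MacB2-3wk replicate 2 (log2 fold change -0.997 to -0.84, adjusted p 0.0444 to 0.0753) and with a pseudocount of 5, with rescaling to the protein-coding sum and in a fit of the groups compared alone (log2 fold change -1.05 to -0.89, adjusted p 0.0151 to 0.0838). In MacA-2wk it had 33.9, 27.7 and 20.5 FPKM, all below the 40.9, 55.6 and 44.6 FPKM of MacA-N, but the change was not called (log2 fold change -0.78 ± 0.29 SE, adjusted p = 0.299). Rab7, Rab9, Rab12 and Rab24 were called in no comparison. Rab42, a member of little described function, lay at 3.52 to 10.95 FPKM in MacB3-2wk, 1.09 to 3.18 FPKM in MacB1-N, 2.04 to 5.87 FPKM in MacB2-N, 0.444 to 5.85 FPKM in MacA-2wk and 0.206 to 1.38 FPKM in MacA-N. Its calls, MacB3-2wk against MacA-2wk (1.53 ± 0.48 SE, adjusted p = 0.0283), MacB3-2wk against MacB1-N (1.39 ± 0.48 SE, adjusted p = 0.0345) and MacB2-N against MacA-N (1.41 ± 0.48 SE, adjusted p = 0.0336), were among the least stable. The Rab42 call for MacB2-N against MacA-N ended without any 1 of MacA-N replicate 3 and MacB2-N replicates 1 and 3 (log2 fold change 1.10 to 1.29, adjusted p 0.096 to 0.151) and with a pseudocount of 5, with no filter on low values, with rescaling to the protein-coding sum and in a fit of the groups compared alone (log2 fold change 0.62 to 1.41, adjusted p 0.0515 to 0.0879). The Rab42 call for MacB3-2wk against MacA-2wk ended without any 1 of MacA-2wk replicates 1 and 2 and MacB3-2wk replicates 2 and 3 (log2 fold change 1.09 to 1.47, adjusted p 0.0817 to 0.149) and with a pseudocount of 5, with rescaling to the protein-coding sum and in a fit of the groups compared alone (log2 fold change 0.75 to 1.53, adjusted p 0.0314 to 0.269). The Rab42 call for MacB3-2wk against MacB1-N ended without any 1 of MacB1-N replicates 2 and 3 and MacB3-2wk replicates 2 and 3 (log2 fold change 1.07 to 1.37, adjusted p 0.0822 to 0.151) and with a pseudocount of 0.1, with a pseudocount of 5, with no filter on low values, with rescaling to the protein-coding sum and in a fit of the groups compared alone (log2 fold change 0.76 to 1.77, adjusted p 0.022 to 0.0901). MacA-2wk replicate 3, the library with the high fibroblast sum, held the 5.85 FPKM, against 0.444 and 0.879 FPKM in the others of its group.

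Recycling endosomes and the routes to the surface held many abundant members and few calls. Of Rab8a, Rab8b, Rab10, Rab11a, Rab11b, Rab13, Rab14, Rab25 and Rab35, only Rab25 was called in any of the 12 comparisons, and Rab15 and Rab17 were not tested. Rab14 averaged 166 ± 6.22 FPKM in MacB1-N and 167 ± 10.9 FPKM in MacB2-N, against 319 ± 34.5 FPKM in MacA-N, and no library overlapped. The adjusted p passed in both (log2 fold change -0.94 ± 0.24 SE, adjusted p = 0.00604 and -0.92 ± 0.24 SE, adjusted p = 0.00713) but the fold stayed under 2. Quantile normalization made Rab14 called lower in both (-1.01 and -1.11), as did leaving out MacA-N replicate 2 (-1.03 and -1.01). Rescaling to the protein-coding sum called it in MacB2-N against MacA-N (-1.15). Rescaling and quantile normalization also called it lower in MacB3-2wk than in MacA-2wk (-1.03 and -1.04). Rab10, which carries TLR4 to the surface of macrophages, averaged 42.1 ± 2.89 FPKM in MacB3-2wk and 55.2 ± 6.44 FPKM in MacA-2wk (log2 fold change -0.38 ± 0.12 SE, adjusted p = 0.0281). Rab8a, of exocytosis and Toll-like receptor signalling, had 219, 293 and 253 FPKM in MacB3-2wk and 298, 263 and 161 FPKM in MacB1-N, and these overlapped. Rab25, the epithelial member of the Rab11 family, was listed at 0 in every MacA-N library and had 1.56, 0.491 and 2.22 FPKM in MacB2-N, and no fold is given. Limma called it (adjusted p = 0.01), and without MacB2-N replicate 3 the adjusted p was 0.0513; with a pseudocount of 5 the difference was under 2-fold. The 8 epithelial markers summed to 3162 to 10316 FPKM in MacB2-N and 656 to 5331 FPKM in MacA-N, which overlapped. Of the 8 markers, 2 were called there, both lower in MacB2-N, and their part in the Rab25 value was not tested.

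Among the Rabs of the endoplasmic reticulum and Golgi, Rab43 (ENSMUSG00000030055, chr6:87788853-87812164, minus strand) had the smallest p of any member. Rab43 acts between the endoplasmic reticulum and the Golgi and, in mouse CD8+ dendritic cells, in cross-presentation. It had 73.2, 91.7 and 71.4 FPKM in MacB1-N and 54.6, 71.6 and 67.0 FPKM in MacB2-N, against 21.1, 18.6 and 20.1 FPKM in MacA-N. Every MacB library of naive lungs was above every MacA-N library, and the log2 fold changes were 1.92 ± 0.17 SE, adjusted p = 3.31e-08 and 1.64 ± 0.17 SE, adjusted p = 2.42e-07. Endothelial, fibroblast, dendritic and T cell markers were also higher in MacB1-N than in MacA-N, with the values given above. Endothelial and dendritic markers were lower in MacB3-2wk than in MacB1-N. Nonclassical monocyte markers were called higher in MacB1-N (7 of 7) and MacB2-N (6 of 7) than in MacA-N. They were called lower in MacB2-3wk than in MacB2-N (7 of 7) and in MacB3-2wk than in MacB1-N (6 of 7). Of 7 fibroblast and 7 endothelial markers, 0 were called in MacB2-N against MacA-N. The part of these cells in the Rab43 values was not tested. Rab43 was called lower in MacB2-3wk than in MacB2-N, and lower in MacB3-2wk than in MacB1-N. MacB3 and MacB1 cells were sorted by different CD64 gates, so population and tumour cannot be told apart between them. MacB2-3wk had 30.6, 22.3 and 22.7 FPKM, all below MacB2-N, with a log2 fold change of -1.33 ± 0.17 SE, adjusted p = 1.37e-05. At 2 weeks MacB2-2wk had 47.5, 47.6 and 34.3 FPKM, also all below MacB2-N, but limma did not call it (log2 fold change -0.58 ± 0.17 SE, adjusted p = 0.0814), and MacB2-3wk was under MacB2-2wk by less than 2-fold (-0.75 ± 0.17 SE, adjusted p = 0.0102). MacB3-2wk had 35.9, 31.0 and 34.3 FPKM, all below MacB1-N, with a log2 fold change of -1.19 ± 0.17 SE, adjusted p = 2.56e-05. Against the 23.4, 22.8 and 22.3 FPKM of MacA-2wk, the MacB3-2wk libraries were all higher, by under 2-fold (0.54 ± 0.17 SE, adjusted p = 0.0239). Within lanes the MacB2-3wk difference was -0.81, -1.64 and -1.52 on the log2 scale and the MacB3-2wk difference from MacB1-N -1.01, -1.53 and -1.03, for lanes 2, 3 and 7. In the annotation used, 74.5% of windows of 50 bases in its transcripts are shared with the readthrough gene Gm45140, so reads of both cannot be told apart and the level is uncertain.

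In naive lungs, Rab36 was higher and Rab18 lower in both MacB1-N and MacB2-N than in MacA-N. Rab36, a Golgi Rab that binds RILP family effectors, was low everywhere: 0.865 to 3.05 FPKM in MacB1-N and 4.40 to 8.21 FPKM in MacB2-N, against 0 to 0.613 FPKM in MacA-N. It rose in MacB2-N with a log2 fold change of 2.63 ± 0.33 SE, adjusted p = 3.9e-06 and in MacB1-N with 1.28 ± 0.33 SE, adjusted p = 0.00552. MacB1-N was in turn lower than MacB2-N (-1.35 ± 0.33 SE, adjusted p = 0.0151), the 1 member called between these naive groups. At 3 weeks it lay at 1.37 to 3.41 FPKM in MacB2-3wk, below all of MacB2-N (-1.25 ± 0.33 SE, adjusted p = 0.0102). In MacB3-2wk it lay at 0.168 to 0.414 FPKM, below MacB2-2wk at 3.84 to 5.87 FPKM (-2.20 ± 0.33 SE, adjusted p = 0.000221) and below MacB1-N (-1.20 ± 0.33 SE, adjusted p = 0.00942). Against MacA-2wk, at 0 to 0.904 FPKM, MacB3-2wk overlapped and was not called (0.04 ± 0.33 SE, adjusted p = 0.992). The lowest of these values are under 1 FPKM, where a fold on the log2(FPKM + 1) scale is compressed. The Rab36 call for MacB1-N against MacA-N ended with a pseudocount of 5, with quantile normalization and in a fit of the groups compared alone (log2 fold change 0.43 to 1.28, adjusted p 0.0228 to 0.074). The Rab36 call for MacB1-N against MacB2-N ended without any 1 of MacB1-N replicate 3 and MacB2-N replicates 1 and 2 (log2 fold change -1.27 to -1.02, adjusted p 0.0592 to 0.0892) and with a pseudocount of 0.1, with a pseudocount of 5 and in a fit of the groups compared alone (log2 fold change -1.75 to -0.72, adjusted p 0.00222 to 0.218). The Rab36 call for MacB2-3wk against MacB2-N ended without MacB2-3wk replicate 3 (log2 fold change -1.04, adjusted p 0.0569) and with a pseudocount of 0.1, with a pseudocount of 5 and in a fit of the groups compared alone (log2 fold change -1.56 to -0.68, adjusted p 0.00139 to 0.176). The Rab36 call for MacB3-2wk against MacB2-2wk ended with a pseudocount of 5 (log2 fold change -0.90, adjusted p 0.000224). The Rab36 call for MacB3-2wk against MacB1-N ended without MacB1-N replicate 2 (log2 fold change -0.97, adjusted p 0.0524) and with a pseudocount of 5 and with quantile normalization (log2 fold change -0.76 to -0.41, adjusted p 0.0293 to 0.118).

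Rab18 (ENSMUSG00000073639, chr18:6733905-6794429, plus strand), a Rab of lipid droplets and the endoplasmic reticulum, had 18.6, 28.4 and 18.9 FPKM in MacB1-N and 22.7, 25.8 and 25.8 FPKM in MacB2-N, against 56.3, 43.5 and 53.1 FPKM in MacA-N. All MacB libraries were below all MacA-N libraries, and the log2 fold changes were -1.20 ± 0.22 SE, adjusted p = 0.00038 and -1.01 ± 0.22 SE, adjusted p = 0.00184. At 2 weeks it had 20.1, 27.2 and 15.9 FPKM in MacB3-2wk and 49.2, 57.5 and 32.8 FPKM in MacA-2wk, again with no overlap (-1.10 ± 0.22 SE, adjusted p = 0.00127). The Rab18 call for MacB2-N against MacA-N ended without any 1 of MacA-N replicates 1 and 3 and MacB2-N replicate 1 (log2 fold change -0.97 to -0.93, adjusted p 0.00903 to 0.0111) and with a pseudocount of 5 (log2 fold change -0.90, adjusted p 0.00146). The Rab18 call for MacB3-2wk against MacA-2wk ended without any 1 of MacA-2wk replicate 2 and MacB3-2wk replicate 3 (log2 fold change -0.93, adjusted p 0.0111 to 0.0117) and with a pseudocount of 5 and in a fit of the groups compared alone (log2 fold change -1.10 to -0.97, adjusted p 0.00113 to 0.0795). Rab19, of which little is described, had the same direction at a lower level. It lay at 0.817 to 1.56 FPKM in MacB3-2wk, against 5.26 to 9.59 FPKM in MacA-2wk (-1.94 ± 0.32 SE, adjusted p = 0.000185) and 3.80 to 8.997 FPKM in MacB1-N (-1.75 ± 0.32 SE, adjusted p = 0.000446), and at 1.77 to 4.37 FPKM in MacB2-N against 8.47 to 10.0 FPKM in MacA-N (-1.32 ± 0.32 SE, adjusted p = 0.00391). With a pseudocount of 5 the last was -0.81 and the MacB1-N one -0.90 on the log2 scale, both under 2-fold. Rab1 (ENSMUSG00000020149, chr11:20201432-20226856, plus strand), which starts transport from the endoplasmic reticulum to the Golgi, had 217, 335 and 241 FPKM in MacB3-2wk, against 128, 144 and 109 FPKM in MacB1-N. No library overlapped, and the log2 fold change was 1.04 ± 0.22 SE, adjusted p = 0.00151. The Rab1 call for MacB3-2wk against MacB1-N ended without any 1 of MacB1-N replicate 3 and MacB3-2wk replicate 2 (log2 fold change 0.85 to 0.93, adjusted p 0.00988 to 0.0119) and with rescaling to the protein-coding sum and with quantile normalization (log2 fold change 0.76 to 0.83, adjusted p 0.00178 to 0.00476). Rab6a, of retrograde transport at the Golgi, was lower in MacB1-N (20.1 ± 5.02 FPKM) and MacB2-N (19.8 ± 1.54 FPKM) than in MacA-N (33.0 ± 2.61 FPKM), with adjusted p of 0.00331 and 0.00378 and under 2-fold. Rab2a and Rab33b were called in no comparison, and Rab30 and Rab33a, under 1 FPKM in every group mean, were not tested.

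**Figure D3:**
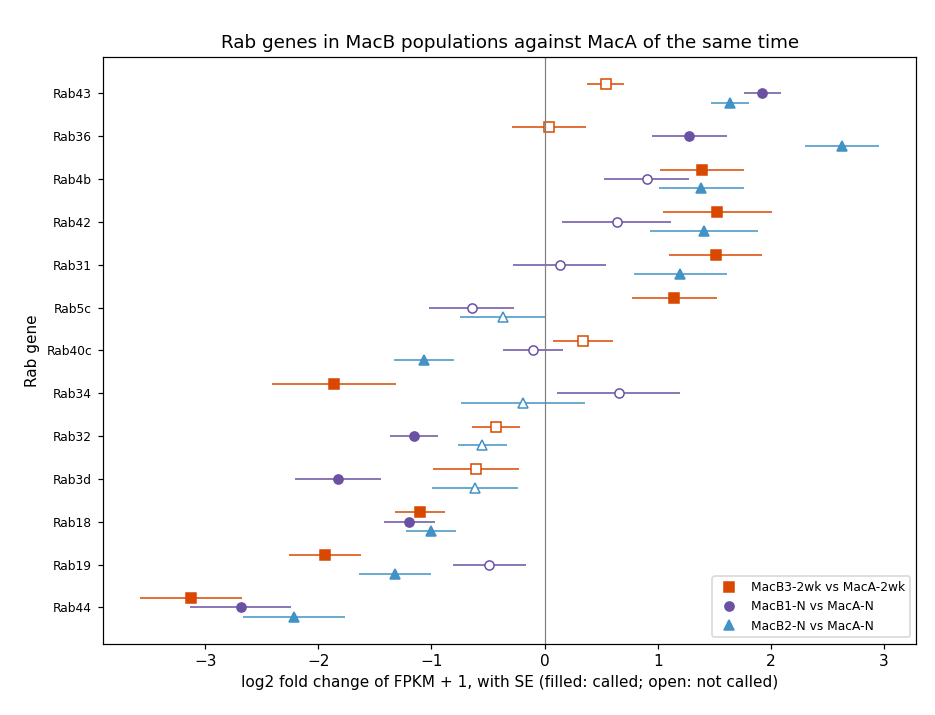
Log2 fold change with its SE (bars) for Rab members called in MacB1-N against MacA-N, MacB2-N against MacA-N or MacB3-2wk against MacA-2wk (limma, n = 3 per group); Rab25 is left out because MacA-N was listed at 0. Rab43 and Rab36 lie to the right and Rab44 and Rab18 to the left of 0 in both naive comparisons.

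Among the secretory and lysosome-related members, Rab44 had the log2 fold change farthest from 0 of all called members in MacB1-N against MacA-N and in MacB3-2wk against MacA-2wk. It is a large atypical member with EF hands, known from mast cells and osteoclasts in mice. Rab44 lay at 0.836 to 3.51 FPKM in MacB1-N and 2.73 to 3.41 FPKM in MacB2-N, against 12.2 to 22.4 FPKM in MacA-N. Groups did not overlap, and the log2 fold changes were -2.69 ± 0.45 SE, adjusted p = 0.000124 and -2.21 ± 0.45 SE, adjusted p = 0.000838. It lay at 0.456 to 0.824 FPKM in MacB3-2wk, against 7.51 to 18.9 FPKM in MacA-2wk (-3.13 ± 0.45 SE, adjusted p = 3.97e-05). MacB3-3wk, at 0.302 to 1.15 FPKM, was below MacB2-3wk, at 2.90 to 7.50 FPKM (-1.82 ± 0.45 SE, adjusted p = 0.028), and this call ended with run lane as a replicate block (adjusted p = 0.0597). The Rab44 call for MacB3-3wk against MacB2-3wk ended without any 1 of MacB2-3wk replicates 1 and 3 and MacB3-3wk replicates 1 and 3 (log2 fold change -1.84 to -1.52, adjusted p 0.0751 to 0.127) and with a pseudocount of 5 and in a fit of the groups compared alone (log2 fold change -1.82 to -0.80, adjusted p 0.0722 to 0.0757). Of 5 mast cell markers, 4 were listed at 0 in all MacA-N libraries (Cpa3, Fcer1a, Tpsb2 and Mcpt4), and their sum was 1.70 to 4.83 FPKM there.

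Rab3d (ENSMUSG00000019066, chr9:21907491-21918192, minus strand), a Rab of secretory granules, was also highest in MacA. It had 8.67, 17.2 and 45.8 FPKM in MacB1-N and 76.6, 71.0 and 64.2 FPKM in MacA-N, a log2 fold change of -1.82 ± 0.38 SE, adjusted p = 0.00109. The MacB1-N libraries spread widely but none reached MacA-N. The Rab3d call for MacB1-N against MacA-N ended in a fit of the groups compared alone (log2 fold change -1.82, adjusted p 0.076). Against MacB1-N, MacB3-2wk had 34.8, 40.7 and 46.0 FPKM, which overlapped it, with a log2 fold change of 1.03 ± 0.38 SE, adjusted p = 0.0477 and an adjusted p of 0.0786 with the lane block. The Rab3d call for MacB3-2wk against MacB1-N ended without any 1 of MacB1-N replicates 1 and 2 and MacB3-2wk replicates 1, 2 and 3 (log2 fold change 0.50 to 1.13, adjusted p 0.0641 to 0.293) and with a pseudocount of 5, with no filter on low values, with rescaling to the protein-coding sum, with quantile normalization and in a fit of the groups compared alone (log2 fold change 0.76 to 1.04, adjusted p 0.0551 to 0.271). MacB2-3wk had 18.8, 24.8 and 19.5 FPKM, below the 45.8, 41.7 and 49.6 FPKM of MacB2-N, with a log2 fold change of -1.09 ± 0.38 SE, adjusted p = 0.0491 and an adjusted p of 0.0829 with the lane block. The Rab3d call for MacB2-3wk against MacB2-N ended without any 1 of MacB2-N replicates 1, 2 and 3 and MacB2-3wk replicates 1, 2 and 3 (log2 fold change -1.21 to -1.02, adjusted p 0.0636 to 0.131) and with a pseudocount of 0.1, with a pseudocount of 5, with no filter on low values, with rescaling to the protein-coding sum and with quantile normalization (log2 fold change -1.12 to -0.95, adjusted p 0.0444 to 0.149). Rab32 (ENSMUSG00000019832, chr10:10545002-10558265, minus strand), which directs cargo to lysosome-related organelles, had 30.7, 27.5 and 33.0 FPKM in MacB1-N and 53.2, 98.2 and 62.5 FPKM in MacA-N. No library overlapped, and the log2 fold change was -1.16 ± 0.21 SE, adjusted p = 0.000317. The Rab32 call for MacB1-N against MacA-N ended without MacA-N replicate 2 (log2 fold change -0.91, adjusted p 0.00271). Rab27a, which docks lysosome-related organelles for exocytosis, was lower in MacB3. It lay at 4.31 to 8.10 FPKM in MacB3-2wk, against 16.0 to 19.9 FPKM in MacB2-2wk (-1.43 ± 0.23 SE, adjusted p = 0.000447) and 12.1 to 14.6 FPKM in MacB1-N (-1.09 ± 0.23 SE, adjusted p = 0.00148). The Rab27a call for MacB3-2wk against MacB1-N ended without MacB3-2wk replicate 2 (log2 fold change -0.90, adjusted p 0.0114) and with a pseudocount of 5 and with quantile normalization (log2 fold change -0.94 to -0.77, adjusted p 0.00157 to 0.00438). Rab37, known from mast cell secretion, was lower in MacB1-N (0.172 ± 0.246 FPKM) than in MacA-N (1.11 ± 0.318 FPKM) by under 2-fold on this scale, with an adjusted p of 0.0237; Rab37 lies opposite Cd300lf on the other strand, and whether reads were counted by strand is not stated for these files.

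Between naive lungs, 2 weeks and 3 weeks the MacB2 cells were followed through all times. No member was called at 2 weeks, and 3 low members rose at 3 weeks. Rab34, of phagosome maturation and cilia, lay at 0 to 3.37 FPKM in MacB2-N, 0.517 to 3.37 FPKM in MacB2-2wk and 5.90 to 8.28 FPKM in MacB2-3wk. The 3-week libraries were above all others, with a log2 fold change of 2.00 ± 0.55 SE, adjusted p = 0.0128 against MacB2-N. Rab4a lay at 0.282 to 2.57 FPKM in MacB2-N, 1.25 to 2.94 FPKM in MacB2-2wk and 5.10 to 10.5 FPKM in MacB2-3wk, with a log2 fold change of 2.20 ± 0.46 SE, adjusted p = 0.00201 for MacB2-3wk against MacB2-N. Rab23, a regulator of hedgehog signalling, lay at 0.438 to 1.14, 0.760 to 2.52 and 3.29 to 5.48 FPKM in the same order, with a log2 fold change of 1.48 ± 0.39 SE, adjusted p = 0.0108. The Rab34 call for MacB2-3wk against MacB2-N ended without MacB2-N replicate 3 (log2 fold change 1.47, adjusted p 0.0806) and with a pseudocount of 5 and in a fit of the groups compared alone (log2 fold change 0.96 to 2.00, adjusted p 0.0256 to 0.093). The Rab4a call for MacB2-3wk against MacB2-N ended in a fit of the groups compared alone (log2 fold change 2.20, adjusted p 0.054). The Rab23 call for MacB2-3wk against MacB2-N ended with a pseudocount of 5 (log2 fold change 0.65, adjusted p 0.0144). For MacB2-3wk against MacB2-2wk limma called no member (10 at an unadjusted p under 0.05), while with run lane as a replicate block 2 were called, Rab34 (log2 fold change 1.55, adjusted p = 0.0448) and Rab4a (1.50, adjusted p = 0.0252). The 7 fibroblast markers summed to 460.2 to 868 FPKM in MacB2-3wk, 114 to 163 FPKM in MacB2-2wk and 20.6 to 46.5 FPKM in MacB2-N, and 5 of 7 rose and 0 fell in MacB2-3wk against MacB2-N. MacA-2wk replicate 3, with its fibroblast sum of 256 FPKM, also had 20.3 FPKM of Rab34 and 4.97 FPKM of Rab4a, against 2.98 and 4.59, and 0.985 and 0.702 FPKM, in replicates 1 and 2. The part of fibroblasts in these values was not tested. Rab34 was called lower in MacB3-2wk, at 0.892 to 1.73 FPKM, than in MacA-2wk (-1.86 ± 0.55 SE, adjusted p = 0.019). The Rab34 call for MacB3-2wk against MacA-2wk ended without any 1 of MacA-2wk replicate 3 and MacB3-2wk replicates 1 and 2 (log2 fold change -1.78 to -1.14, adjusted p 0.0565 to 0.118) and with a pseudocount of 0.1 and in a fit of the groups compared alone (log2 fold change -2.44 to -1.86, adjusted p 0.0723 to 0.172). Rab4a lies within the span of Gm20388 on the same strand, but 0 of its 1752 transcript windows of 50 bases were shared with another gene.

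**Figure D4:**
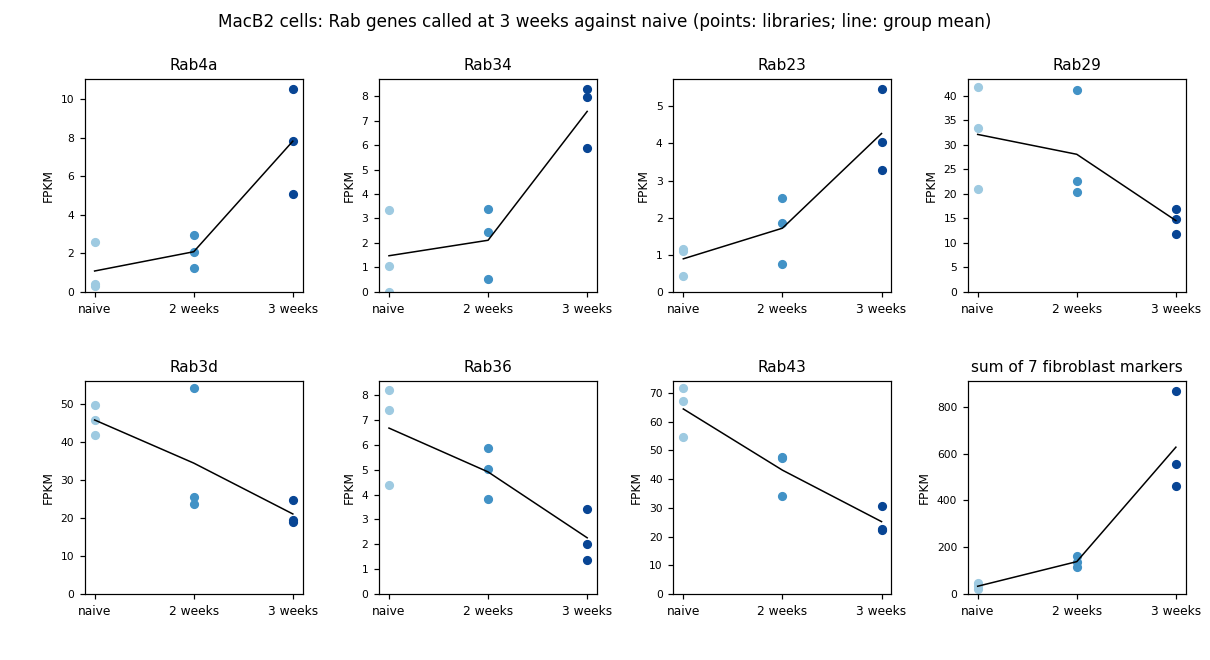
FPKM of the 7 Rab members called in MacB2-3wk against MacB2-N, and the summed FPKM of 7 fibroblast markers, in each library (points, with the group mean as a line) at naive, 2 weeks and 3 weeks. Rab43, Rab29, Rab3d and Rab36 end below their naive points, while Rab34, Rab4a, Rab23 and the fibroblast sum end above them.

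Rab40c, whose SOCS box links it to ubiquitin ligases, differed between MacB populations. It lay at 9.71 to 13.9 FPKM in MacB3-2wk and 2.33 to 2.83 FPKM in MacB2-2wk, with a log2 fold change of 1.80 ± 0.26 SE, adjusted p = 0.000188, and within lanes 2, 3 and 7 the difference was 1.68, 1.76 and 1.96. It was lower in MacB2-N, at 2.63 to 5.58 FPKM, than in MacA-N, at 6.22 to 10.4 FPKM (-1.06 ± 0.26 SE, adjusted p = 0.00455). The Rab40c call for MacB2-N against MacA-N ended without any 1 of MacA-N replicate 3 and MacB2-N replicates 2 and 3 (log2 fold change -0.94 to -0.91, adjusted p 0.0231 to 0.0291) and with a pseudocount of 5 and in a fit of the groups compared alone (log2 fold change -1.06 to -0.65, adjusted p 0.0055 to 0.0892). At 3 weeks MacB3-3wk lay at 3.59 to 6.88 FPKM and MacB2-3wk at 3.80 to 7.40 FPKM, which overlapped. The change over time in MacB3 less the change over time in MacB2 was -1.94 ± 0.37 SE, adjusted p = 0.312 for Rab40c, which is not called. In this difference of differences 0 members were called by limma (5 at an unadjusted p under 0.05; all genes 0.00%). The difference between the MacB2 and MacA responses at 2 weeks called 0 members as well (2 at an unadjusted p under 0.05; all genes 0.221%), and its smallest p was that of Rab43 (-0.77 ± 0.23 SE, adjusted p = 0.224). Rab28, a ciliary Rab, averaged 12.2 ± 1.93 FPKM in MacB3-2wk and 6.98 ± 1.42 FPKM in MacB1-N (log2 fold change 0.74 ± 0.26 SE, adjusted p = 0.0364).

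The machinery around the Rab proteins was read from 4 lists: factors of lipid attachment and membrane recycling (8 genes tested), GEFs (36), GAPs (37) and effectors (51). Of the GEFs, 9 were higher and 2 lower in MacB1-N than in MacA-N, 5 and 2 in MacB2-N against MacA-N, 3 and 5 in MacB2-3wk against MacB2-N and 1 and 8 in MacB3-2wk against MacB1-N. Their median log2 fold change was 0.26 in MacB1-N against MacA-N and -0.27 in MacB3-2wk against MacB1-N, beside 0.12 and -0.11 for all genes tested. In the same 4 comparisons the GAPs counted 7 higher and 3 lower, 4 and 4, 1 and 2, and 1 and 5. The effectors counted 5 higher and 5 lower, 5 and 9, 3 and 3, and 2 and 7. Median log2 fold changes in MacB3-2wk against MacB1-N were -0.23 for GAPs and -0.29 for effectors. Of all genes tested, 23.7%, 20.9%, 14.7% and 21.5% were called in these 4 comparisons, in the same order. No list was tested as a set. A pseudocount of 5 left 5 GEFs called in MacB1-N against MacA-N and 4 in MacB2-3wk against MacB2-N, 1 GAP in MacB2-3wk against MacB2-N, and 6, 7 and 3 effectors in MacB1-N and MacB2-N against MacA-N and in MacB3-2wk against MacB1-N. Fits of the groups compared alone left 6 GAPs in MacB1-N against MacA-N, 9 effectors in MacB2-N against MacA-N, and 5 GEFs and 2 effectors in MacB2-3wk against MacB2-N. For the pseudocount of 5 and these fits the share of all genes is not given.

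Among the GEFs, Rab3il1, which activates Rab8 and Rab3 proteins, was higher in MacB3 than in MacB2 at both times. It averaged 81.5 ± 10.8 FPKM in MacB3-2wk and 12.4 ± 4.58 FPKM in MacB2-2wk (log2 fold change 2.67 ± 0.25 SE, adjusted p = 1.02e-06), and 91.2 ± 8.34 FPKM in MacB3-3wk and 13.7 ± 5.46 FPKM in MacB2-3wk (log2 fold change 2.70 ± 0.25 SE, adjusted p = 2.31e-06). Of the Rab8 and Rab3 proteins, Rab8a, Rab8b and Rab3a were called in no comparison, and Rab3d was called in 3, described above, among them MacB3-2wk against MacB1-N, where Rab3il1 averaged 81.5 ± 10.8 FPKM in MacB3-2wk and 9.06 ± 0.614 FPKM in MacB1-N (log2 fold change 3.03 ± 0.25 SE, adjusted p = 5.19e-08). Rin3, a GEF of Rab5 and Rab31 proteins, averaged 104 ± 42.8 FPKM in MacB3-2wk and 528 ± 108 FPKM in MacB1-N (log2 fold change -2.41 ± 0.36 SE, adjusted p = 5.15e-05), and 156 ± 42.9 FPKM in MacB2-3wk and 502 ± 58.7 FPKM in MacB2-N (log2 fold change -1.71 ± 0.36 SE, adjusted p = 0.00185). Madd, a GEF of Rab3 and Rab27 proteins, averaged 77.9 ± 16.2 FPKM in MacB1-N and 21.1 ± 7.25 FPKM in MacA-N (log2 fold change 1.87 ± 0.37 SE, adjusted p = 0.000666). Among the GAPs, Tbc1d8 averaged 38.1 ± 7.96 FPKM in MacB1-N and 0.646 ± 0.289 FPKM in MacA-N, a log2 fold change of 4.56 ± 0.23 SE, adjusted p = 3.68e-11, and Tbc1d4, which acts on Rab10 and its kin in insulin-sensitive cells, averaged 21.2 ± 1.30 FPKM in MacB1-N and 2.19 ± 0.226 FPKM in MacB2-N (log2 fold change 2.80 ± 0.31 SE, adjusted p = 8.69e-06).

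Among the effectors, Unc13d (Munc13-4), the partner of Rab27a in exocytosis, averaged 89.1 ± 12.3 FPKM in MacB1-N and 3.31 ± 3.06 FPKM in MacA-N (log2 fold change 4.73 ± 0.59 SE, adjusted p = 4.06e-06), and 73.8 ± 20.9 FPKM in MacB3-2wk and 1.13 ± 1.25 FPKM in MacA-2wk (log2 fold change 5.28 ± 0.59 SE, adjusted p = 1.99e-06). Rab27a itself was called in neither comparison. It was higher in MacB1-N than in MacA-N by under 2-fold (log2 fold change 0.68 ± 0.23 SE, adjusted p = 0.0295). At 2 weeks Rab27a averaged 6.04 ± 1.92 FPKM in MacB3-2wk and 8.26 ± 0.908 FPKM in MacA-2wk. Lrrk2, the kinase partner of Rab29, averaged 1.41 ± 0.286 FPKM in MacB3-2wk and 15.1 ± 0.783 FPKM in MacB1-N (log2 fold change -2.75 ± 0.27 SE, adjusted p = 4.26e-07), and Rab29 was lower there too but by under 2-fold (-0.79 ± 0.29 SE, adjusted p = 0.0458). In MacB1-N against MacA-N the 2 had opposite signs. Lrrk2 was higher there (1.48 ± 0.27 SE, adjusted p = 0.000278), and Rab29 was lower but not called (-0.61 ± 0.29 SE, adjusted p = 0.118). Rab11fip5, an effector of Rab11, averaged 21.6 ± 3.64 FPKM in MacB3-2wk and 3.76 ± 0.760 FPKM in MacB1-N (log2 fold change 2.25 ± 0.23 SE, adjusted p = 6.35e-07). Plin3, a lipid droplet protein that binds Rab9, averaged 9.89 ± 0.598 FPKM in MacB2-N and 36.1 ± 0.597 FPKM in MacA-N (log2 fold change -1.77 ± 0.17 SE, adjusted p = 1.54e-07). Of the lipid attachment factors, Rabggtb, the catalytic subunit of the enzyme that adds the geranylgeranyl tail, averaged 11.8 ± 3.30 FPKM in MacB2-3wk and 3.05 ± 1.42 FPKM in MacB2-N (log2 fold change 1.69 ± 0.28 SE, adjusted p = 0.00021). In the comparisons given here, the calls of these named list genes held under every alternative tried.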

How the data were processed

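RNA sequencing values of 24 libraries from sorted lung macrophages and monocytes were used, 3 in each of 8 groups taken from the sample titles. The series' design text gives the MacB3 cells of 2 weeks the name of the 3-week group, and the titles were followed. Per the submitters' processing notes, the authors used FastQC for read quality, TopHat2 (version 2) for alignment to mm10 and Cufflinks 2.0.2 for the deposited FPKM values. No unit stands in the header of the table, and FPKM is the unit these notes give. The table's loci did not match GRCm38, so positions came from GENCODE M21 by Ensembl identifier, where all 58 members were found (Rab1 is Rab1a there). Whether reads were counted by strand is not stated in what was used here. Library sums were 1880236 to 4868372 FPKM. Depth in reads cannot be read from them, so no counting intervals are given.

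Values were tested as log2(FPKM + 1) without rescaling, in limma 3.58.1 (R 4.3.3) on all 24 libraries, with a mean for each group (16 residual degrees of freedom) and eBayes set to follow the mean level. Genes that reached a group mean of 1 FPKM anywhere (17156 of 37979) were tested in 12 pairwise comparisons and 2 differences of differences. P values were adjusted by the Benjamini-Hochberg method over the genes tested, within each comparison. Called means an adjusted p under 0.05 and at least 2-fold. The procedure was tested on simulated data. Alternatives were other pseudocounts (0.1 and 5), no filter or a filter at 5 FPKM, rescaling to the protein-coding sum, quantile normalization, replicate blocks, the compared groups alone, and each library left out. The replicates are 3 independent experiments per the series text, so the spread includes that between experiments.

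By the labels, same-numbered replicates of the MacB groups shared a run lane, 1 lane per number. Deviations from group means correlated by -0.0726 to 0.210 (median 0.00119) over 45 same-lane pairs of MacB libraries, 1 of them over 0.1. MacA-2wk and MacA-N libraries were all on run lane 1, so a shared number there marked no lane of its own.

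Values in every library are given for called members with a group mean of at least 20 FPKM, at most the 6 highest and 6 lowest log2 fold changes of a comparison, and ranges or means for others. Up to 4 genes per list and comparison with the smallest adjusted p could be named, and Rab25 values per library and the single values of MacA-2wk libraries were added after they were seen. Members and lists were chosen with earlier results of these data known. Shared transcript windows were counted over 50-base windows of GENCODE M21 transcripts. RefSeq start regions were searched with Python 3.11.15.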

Additional observations from a re-analysis of the deposited data

How the results depend on the processing

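Of 690 recomputed fold changes of called members, 536 stayed called, 154 were no longer called and 0 changed sign. The count of members called moved by over 1.5 times as follows. A pseudocount of 0.1 gave 1 in MacB2-3wk against MacB2-2wk and 2 in MacB3-3wk against MacB2-3wk. A pseudocount of 5 gave 5 in MacB2-N against MacA-N, 0 in MacB1-N against MacB2-N, 2 in MacB2-3wk against MacB2-N, 0 in MacB3-3wk against MacB2-3wk and 4 in MacB3-2wk against MacB1-N. Rescaling gave 3 in MacB1-N against MacB2-N and 1 in MacB2-3wk against MacB2-2wk, and quantile normalization gave 2 in that last comparison and 6 in MacB3-2wk against MacB1-N. Fits of the compared groups alone gave 6 in MacB2-N against MacA-N, 0 in MacB1-N against MacB2-N, 3 in MacB2-3wk against MacB2-N, 0 in MacB3-3wk against MacB2-3wk, 5 in MacB3-2wk against MacA-2wk and 5 in MacB3-2wk against MacB1-N. The causes were not tested.

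The replicate block on all libraries gave 1 in MacB2-3wk against MacB2-2wk (Rab4a, adjusted p = 0.0345). The replicate block by run lane gave 2 there and 0 in MacB3-3wk against MacB2-3wk, ended the Rab3d, Rab5c and Rab44 calls named in the report, and ended no other call of a member.

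With 1 library left out, counts ran over 6 to 8 in MacB1-N and 6 to 10 in MacB2-N against MacA-N, 0 to 3 in MacB1-N against MacB2-N, 5 to 8 in MacB2-3wk against MacB2-N, 0 to 1 in MacB2-3wk against MacB2-2wk, 3 to 4 in MacB3-2wk against MacB2-2wk, 0 to 1 in MacB3-3wk against MacB2-3wk, 5 to 8 in MacB3-2wk against MacA-2wk and 6 to 11 in MacB3-2wk against MacB1-N, and stayed at 0 in the other comparisons. Without MacA-2wk replicate 3 and MacB2-N replicate 3 together, chosen after seeing the data, MacB1-N against MacB2-N called 4, MacB2-N against MacA-N 8, MacB2-3wk against MacB2-N 9 and MacB3-2wk against MacA-2wk 6. Of 93 fold changes of list genes that met the naming rule, 44 were called under every alternative. Absolute depth is unknown, so no upper limit is given for a listed 0, and 3 libraries a group limit every test.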
